A study of Mus musculus with 8 samples.

Results

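Cytochrome P450 enzymes are haem proteins that insert an oxygen atom into drugs, fatty acids, steroids, bile acids and other lipids, and they are grouped into numbered families by sequence. Those in the endoplasmic reticulum receive electrons from the reductase Por and from cytochrome b5, those in mitochondria from Fdxr and ferredoxin. In the small intestine they are known chiefly from absorptive enterocytes, where they act on swallowed compounds, and many of their genes are controlled by nuclear receptors that pair with RXR, as the liver X receptors (LXR) do. The genes described here are those whose symbol in the deposited probe table has the form Cyp, a number, a letter and a number, with 2 symbols set aside. They came to 74 genes and 98 probes, of 18138 symbols and 25697 probes in all, and the rule reads symbols, not signals.

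RNA of ileal tumours was measured on 8 Illumina BeadChip arrays. The 4 control tumours came from APCmin/+/VP16 mice, which carry VP16, a viral transactivation domain, alone, and the 4 others from APCmin/+/VP16LXRa mice, in which VP16 is fused to LXRα, a sterol-activated receptor. Every animal was heterozygous for the Apc Min mutation, which gives intestinal tumours, was of a mixed C57BL/6J-FVBN strain and was 8 months old. The labels do not state the promoter behind the transgenes, the sex of the mice, whether tumours were pooled, or that each array is a separate animal, so the p-values speak only of the spread among these 8 samples, which may be technical. The question was which P450 genes these tumours express and whether they differ with the activated receptor.

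Between 49.0% and 54.7% of all probes were detected per array (detection p under 0.05 against the negative control beads), and the median signal ranged from 134 to 165. VP16LXRa 5 lay apart, with a median correlation with the other arrays of 0.869 against 0.910 to 0.942. Single arrays moved many differences up or down, and values without some of these arrays are given beside them. Nr1h3, the gene of LXRα, differed by 0.28 at its brightest probe (SE 0.37, adjusted p = 0.998 with limma). Its other probe, detected on 6 arrays, differed by 0.49 (SE 0.37, adjusted p = 0.998 with limma). No label states whether either probe can detect the transgene. The ileal marker Fabp6, a bile acid binding protein, was detected on all 8 arrays at log2 levels from 13.82 to 15.13. The probes of Slc10a2, the ileal bile acid transporter, were detected on no array.

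The promoters of 5 genes are shown because their genes carry the results below: Cyp27a1 and Cyp2b10 held the 3 probes with an unadjusted p under 0.05, Cyp2c55 the widest range between arrays, and Cyp3a11 and Cyp3a13 belong to the subfamily in which all 3 tested genes were higher in VP16LXRa tumours. Each window runs 5′ to 3′ on the gene's strand from 250 bases before to 50 bases after the start in RefSeq, build GRCm38.p6. Capitals mark the nuclear receptor half-site AGNTCA on either strand (TGANCT when read on the other).
Cyp27a1, chr1:74713285-74713584, plus strand: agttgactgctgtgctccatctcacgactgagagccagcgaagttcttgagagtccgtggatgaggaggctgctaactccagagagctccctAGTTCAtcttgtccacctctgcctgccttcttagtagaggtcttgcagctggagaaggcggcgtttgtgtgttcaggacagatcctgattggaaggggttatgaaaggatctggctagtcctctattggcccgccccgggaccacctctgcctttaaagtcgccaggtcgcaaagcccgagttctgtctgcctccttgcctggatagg
Cyp2b10, chr7:25897408-25897707, plus strand: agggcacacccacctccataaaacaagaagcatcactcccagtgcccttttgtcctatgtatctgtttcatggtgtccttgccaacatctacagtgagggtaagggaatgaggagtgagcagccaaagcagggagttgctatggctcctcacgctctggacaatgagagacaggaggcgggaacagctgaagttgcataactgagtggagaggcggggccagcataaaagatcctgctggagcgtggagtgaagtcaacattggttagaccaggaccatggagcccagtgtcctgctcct
Cyp2c55, chr19:39006769-39007068, plus strand: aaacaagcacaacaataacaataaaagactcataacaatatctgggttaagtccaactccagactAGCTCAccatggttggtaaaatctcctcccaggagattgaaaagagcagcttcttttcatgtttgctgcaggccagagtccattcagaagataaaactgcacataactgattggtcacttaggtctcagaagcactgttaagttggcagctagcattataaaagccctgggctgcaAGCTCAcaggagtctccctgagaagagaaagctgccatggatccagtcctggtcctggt
Cyp3a11, chr5:145879805-145880104, minus strand: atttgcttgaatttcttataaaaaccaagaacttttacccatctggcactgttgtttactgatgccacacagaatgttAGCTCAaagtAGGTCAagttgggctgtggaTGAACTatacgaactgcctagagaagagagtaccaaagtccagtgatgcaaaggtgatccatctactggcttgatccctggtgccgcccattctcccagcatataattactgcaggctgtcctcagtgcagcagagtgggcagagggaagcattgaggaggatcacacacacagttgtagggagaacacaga
Cyp3a13, chr5:137921570-137921869, minus strand: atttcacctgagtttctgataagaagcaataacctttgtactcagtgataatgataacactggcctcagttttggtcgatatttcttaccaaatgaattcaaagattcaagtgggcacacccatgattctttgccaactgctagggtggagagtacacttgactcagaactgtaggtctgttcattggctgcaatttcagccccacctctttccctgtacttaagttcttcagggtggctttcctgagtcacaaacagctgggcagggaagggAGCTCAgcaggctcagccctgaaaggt

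RefSeq's promoter table held 65 windows for 56 of the 74 genes. The half-site was found in 61.5% of these, in 42.3% of the 26 windows for tested genes and in 46.6% of all 32851 windows of this length. The windows for tested genes covered 22 genes. Cyp27a1 held 1 half-site, 158 bases before the start, Cyp2b10 none, Cyp2c55 2, Cyp3a11 3 and Cyp3a13 1, 24 bases after the start. A pair of half-sites in the same direction with 4 bases between them (AGNTCANNNNAGNTCA, both strands), the spacing to which LXR with RXR is known to bind, was found in 41 windows in all, 0.125% of them. Among the P450 windows only that of Cyp3a11 held it, starting 172 bases before the start. A match is a description of letters, and overlap of these motifs with others was not examined.

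Of the 74 genes, 26 had a probe detected on at least 4 of the 8 arrays, and these 34 probes were tested. A further 20 genes were detected on 1 to 3 arrays and 28 on none. Family 2, the largest, had 12 of 37 genes tested, family 3 had 3 of 5 and family 4 had 6 of 13. Of the families with steroid, bile acid or retinoid substrates, Cyp7b1, Cyp11b2 and Cyp27a1 were tested, as was Cyp20a1, whose substrate is not established. Several P450 subfamilies consist of near-identical neighbours, so a probe may also bind transcripts of a related gene, and probe sequences were not used here.

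**Figure D1:**
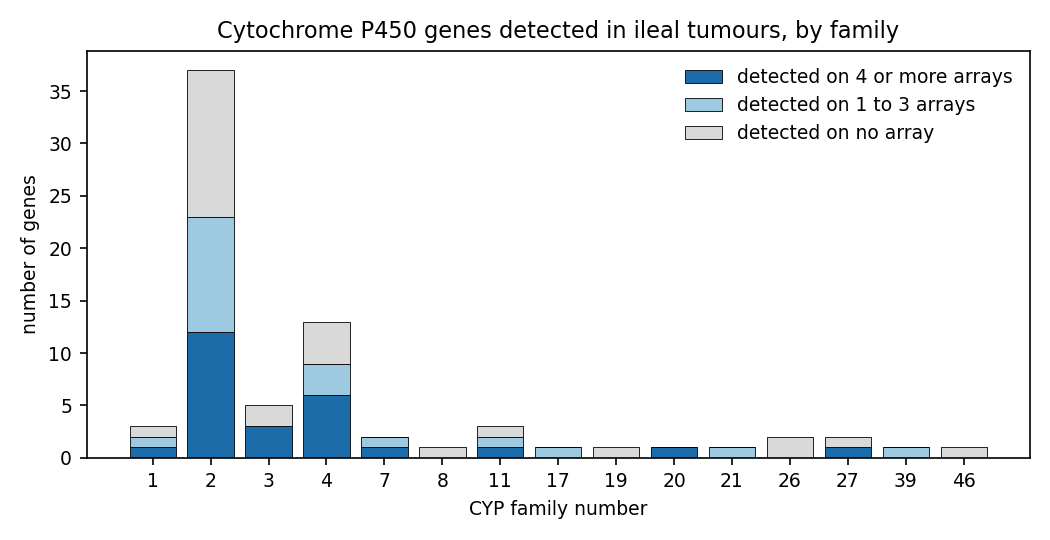
Number of P450 genes per CYP family, split by the number of arrays on which the gene's best probe was detected (bar segments: 4 or more, 1 to 3, or none of 8 arrays). Families 2, 3 and 4 hold 21 of the 26 tested genes.

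The genes below the detection rule included several of hormone and bile acid synthesis. Cyp1a1, the classic target of the aryl hydrocarbon receptor, was detected on no array and lay between 4.35 and 4.61, and the probes of Ahr itself were detected on no array either. Cyp8b1 of bile acid synthesis, Cyp19a1 (aromatase), the retinoic acid hydroxylases Cyp26a1 and Cyp26b1, Cyp27b1 and the brain cholesterol hydroxylase Cyp46a1 were also detected on none. Cyp7a1, the rate-limiting enzyme of classical bile acid synthesis and a known LXR target in mouse liver, was detected only on VP16LXRa 5, at 5.28, against 4.30 to 4.65 on the others. The steroidogenic genes Cyp11a1, Cyp17a1 and Cyp21a1 were each detected on 1 array, and Cyp39a1, an oxysterol hydroxylase, on 3. In families 1, 2 and 4, Cyp1a2, Cyp2g1 and Cyp4a31 were detected only on VP16LXRa 8, Cyp2a12 and Cyp2j6 only on VP16LXRa 5, Cyp2f2 and Cyp4f39 only on VP16LXRa 6, Cyp2c40 only on VP16LXRa 7, Cyp2c68 only on control 3 and Cyp2c37 on controls 3 and 4. Of these Cyp4a31, of a subfamily of fatty acid hydroxylases, reached 6.34 on VP16LXRa 8 and the others at most 5.43.

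No P450 probe differed past an adjusted p of 0.05 between VP16LXRa and control tumours, where 0% of all 13426 tested probes did (limma, Benjamini-Hochberg over all tested probes). All adjusted p-values of P450 probes were 0.998 or above, so they are not repeated below. At an unadjusted p under 0.05 there were 3 of 34 P450 probes, from 2 genes and all higher in VP16LXRa tumours. Of all tested probes 2.53% had such a p in either direction and 1.72% in that direction. Of the 26 genes, each represented by its brightest tested probe, 15 were higher and 11 lower in VP16LXRa tumours, and 53% of all 10159 tested genes were higher. Absolute log2 differences over 1 were found for 4 of the 26 genes, Cyp2b10, Cyp2c55, Cyp3a11 and Cyp4v3, and for 3.04% of all tested genes. The median log2 difference was 0.28 over the P450 genes and 0.02 over all tested genes. Without control 4 the P450 median was -0.006, and without VP16LXRa 8 it was 0.048. Differences here are VP16LXRa minus control on the log2 scale, from intensities corrected for background with an offset of 16 and quantile-normalised, so those of dim probes are compressed.

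**Figure D2:**
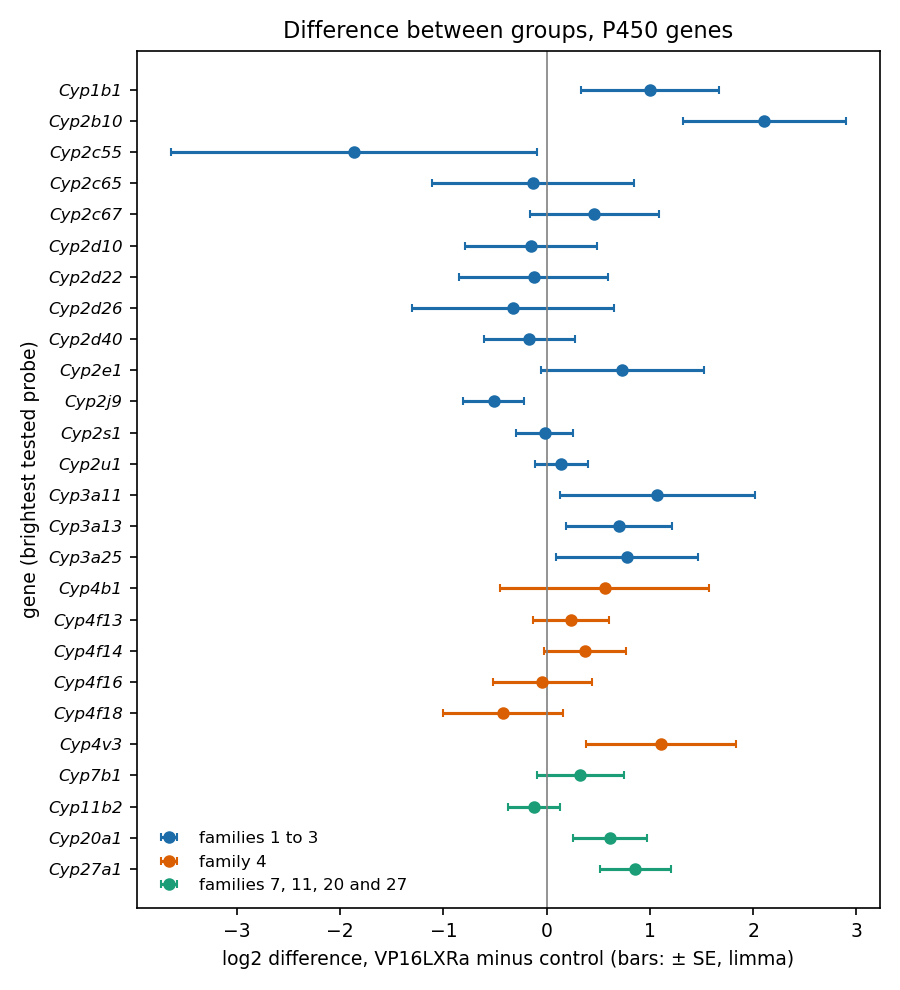
Log2 difference between VP16LXRa and control tumours for the 26 tested P450 genes (points; bars are ± SE from limma), coloured by family group. Differences run from -1.86 for Cyp2c55 to 2.11 for Cyp2b10, and none passed the adjusted threshold.

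Cyp27a1, the mitochondrial enzyme that hydroxylates the side chain of cholesterol to an oxysterol able to activate LXR, had 2 of the 3 P450 probes with an unadjusted p under 0.05. One probe (ILMN_2620326) was at 7.74, 8.39, 8.05 and 8.56 in controls 1 to 4 and at 8.74, 9.40, 8.92 and 8.84 in VP16LXRa 5 to 8. Every VP16LXRa array lay above every control, the only such case among the 34 P450 probes, against 1.74% of all tested probes without overlap in either direction and 1.01% in that direction. The groups overlapped without normalization between arrays and with cyclic loess. The means were 8.18 ± 0.37 (SD, n = 4) and 8.98 ± 0.29 (SD, n = 4), a difference of 0.79 (SE 0.26, unadjusted p = 0.0126 in the limma fit). A second probe (ILMN_2960108) was at 7.95, 8.88, 8.76 and 9.35 in controls and at 9.24, 10.22, 9.58 and 9.33 in VP16LXRa tumours, with a difference of 0.86 (SE 0.34, unadjusted p = 0.0328 in the limma fit). There the groups overlapped through control 4, which exceeded VP16LXRa 5 and 8. Its remaining probe (ILMN_2960114) ran from 8.31 to 9.46 in controls and from 8.76 to 10.34 in VP16LXRa tumours, a difference of 0.64 (SE 0.40) that was 0.34 without VP16LXRa 6. Leaving out single arrays, the second probe differed by 0.60 (without control 1) to 1.07 (without control 4), and without VP16LXRa 5 the 3 probes differed by 0.87, 0.97 and 0.87. The 8 tested macrophage and dendritic cell markers, cells in which this gene is also known, averaged 7.11 to 8.73 in controls and 7.00 to 7.97 in VP16LXRa tumours. The lowest mean was that of VP16LXRa 5, where Lyz2 was at 4.57 and C1qa at 4.45, against at least 7.95 and 7.39 elsewhere. C1qb was at 8.56 on that array. The part of these cells was not tested.

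Of the other tested genes of families 7 and above, none had an unadjusted p under 0.05. Cyp7b1, an oxysterol hydroxylase of the alternative bile acid pathway, was at 5.68, 6.67, 5.11 and 7.05 in controls and at 6.95, 6.41, 6.15 and 6.31 in VP16LXRa tumours, a difference of 0.33 (SE 0.42) that was 0.17 without VP16LXRa 5, 0.18 without control 1, 0.63 without control 4 and -0.012 without control 3. Cyp20a1 was at 5.07, 5.70, 6.59 and 6.31 in controls and at 6.78, 6.63, 5.96 and 6.75 in VP16LXRa tumours, a difference of 0.61 (SE 0.36) that was 0.33 without control 1. Without control 3 the difference was 0.83, and without VP16LXRa 7 it was 0.81. Control 1 was lowest for Cyp20a1, and 3 of the VP16LXRa arrays lay above every control. Cyp11b2, aldosterone synthase, was near the background, from 4.80 to 5.67. It differed by -0.12 (SE 0.25), with a range from -0.28 to 0.01 over single arrays left out. Another Cyp11b2 probe was detected on no array.

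Cyp2b10, the classic target of the constitutive androstane receptor Nr1i3, had the largest difference of the 26 genes. It was at 4.57, 5.37, 4.81 and 4.86 in controls 1 to 4, where it was detected only on control 2, and at 4.50, 8.14, 6.69 and 8.72 in VP16LXRa 5 to 8. VP16LXRa 6, 7 and 8 lay above every control, and VP16LXRa 5 below all of them. The difference was 2.11 (SE 0.79, unadjusted p = 0.0250 in the limma fit), and 2.98 (SE 0.46) without VP16LXRa 5. The probe reached the minimum of 4 arrays only with the 3 VP16LXRa arrays on which it was high, so its entry into the test, and its place among the 3 probes with an unadjusted p under 0.05, depended on the group in which it was higher. Over all alternatives its adjusted p was at lowest 0.367 in the limma fits and its difference ran from 0.91 to 2.98. A second Cyp2b10 probe was detected only on control 4 and stayed between 4.46 and 5.13 on all 8, so the 2 probes disagreed. The probe of Cyp2b23, a related gene, was detected on 2 arrays, VP16LXRa 6 at 5.55 and VP16LXRa 8 at 6.57, with 4.26 to 4.51 in controls. Its groups did not overlap, with the lowest VP16LXRa array at 4.69, but it was below the detection rule and was not tested. Beside these, Nr1i3 was at 4.80, 6.06, 5.64 and 4.64 in controls and at 5.15, 6.03, 5.90 and 6.91 in VP16LXRa tumours, and Gata4, a transcription factor of the proximal intestine chosen after its values were seen, was at 5.76, 6.45 and 5.94 in VP16LXRa 6, 7 and 8 and between 4.39 and 5.20 on the other arrays. Gata4 was detected on only 4 arrays, and its entry among the tested probes may have depended on the group in which it was higher. Fabp1 and Cybrd1, the other proximal markers in that list with a probe, were detected on no array. The part of Nr1i3 and of proximal tissue in the Cyp2b10 difference was not tested.

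**Figure D3:**
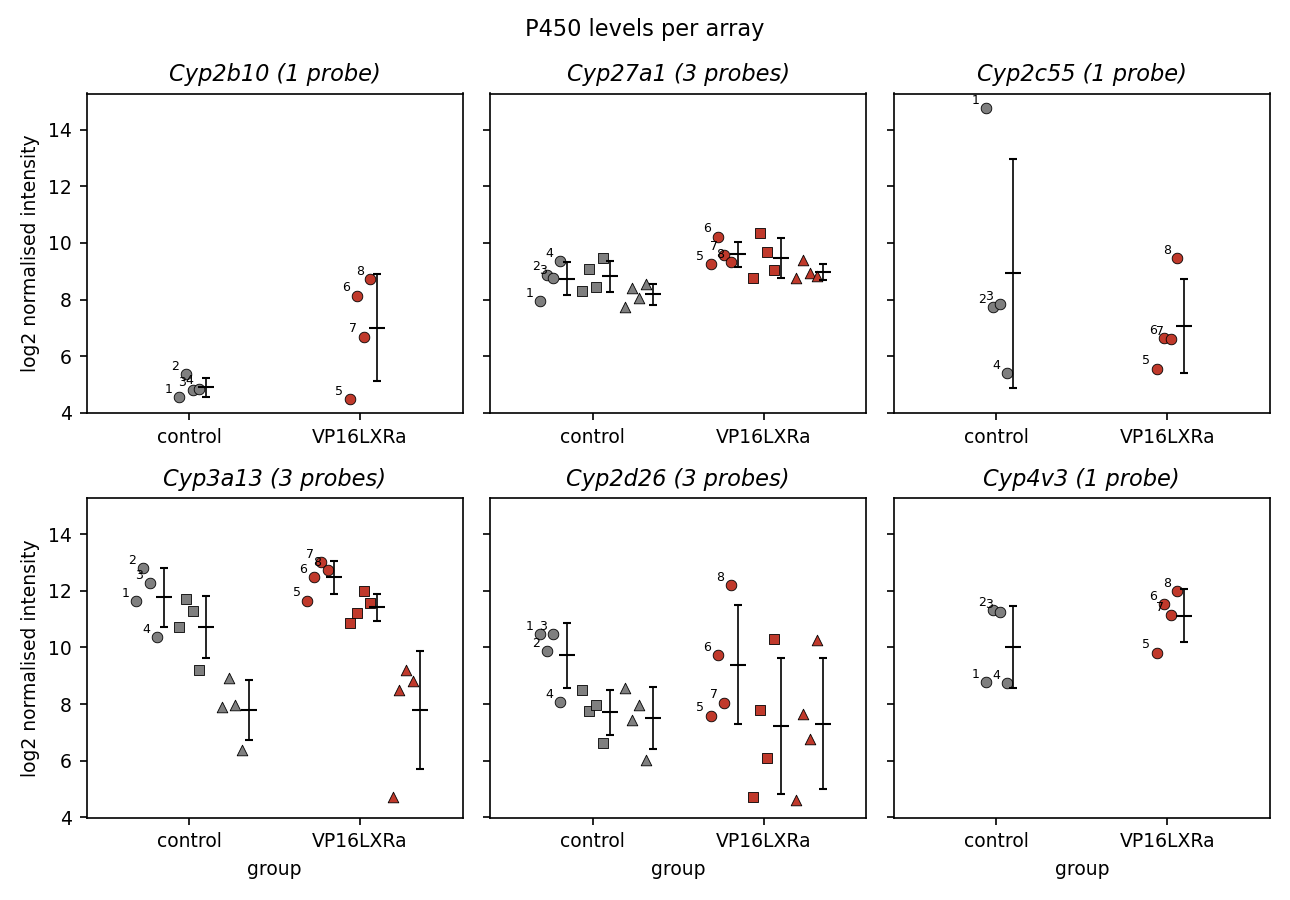
Log2 normalised intensity per array (points, numbered by replicate for the brightest probe; marker shapes are different tested probes of a gene) with mean ± SD (n = 4) for 6 P450 genes. Cyp2b10 was near 4.5 to 5.4 in every control and in VP16LXRa 5, and Cyp2c55 reached 14.76 in control 1.

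The 3 tested Cyp2c genes overlapped between the groups, 1 higher and 2 lower. Cyp2c55, an arachidonic acid hydroxylase known from mouse colon, was at 14.76, 7.75, 7.83 and 5.39 in controls and at 5.57, 6.65, 6.59 and 9.47 in VP16LXRa tumours. Control 1 stood far above all other arrays and VP16LXRa 8 was next. The difference was -1.86 (SE 1.77), and 0.08 (SE 0.96) without control 1 and -3.06 without control 4. Cyp2c65, its neighbour in the subfamily, was at 10.89, 7.68, 8.16 and 7.02 in controls and at 6.21, 8.32, 8.36 and 10.33 in VP16LXRa tumours, again with control 1 and VP16LXRa 8 highest, and differed by -0.13 (SE 0.98). That difference was 0.68 without control 1, 0.56 without VP16LXRa 5 and -0.81 without VP16LXRa 8. Cyp2c67 did not share the high value of control 1, which was at 5.88 on a range from 5.85 to 8.58, and differed by 0.46 (SE 0.62). Its difference was 0.043 without VP16LXRa 8, 0.12 without control 4, 0.14 without control 1 and 0.88 without control 2. A second, untested Cyp2c67 probe was detected only on VP16LXRa 8.

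By the within-group ratio described below, control 1 also stood apart for 4 untested P450 genes. Cyp2d34 was detected there alone, at 9.05, with 4.38 to 4.70 elsewhere. Cyp2d9 was at 8.63 in control 1, at 5.85 in VP16LXRa 5, where it was also detected, and from 4.42 to 4.94 on the other 6 arrays. Cyp2d12 was detected only on control 1, at 5.91, and Cyp4f15 on control 1, at 6.01, and VP16LXRa 8, at 5.29. Aqp8, a colonic water channel chosen as a marker after these values were seen, was at 12.79 in control 1 and from 4.55 to 6.49 elsewhere. Hoxb13, another colon marker, was detected on no array. The sulphotransferases Sult1a1 and Sult1c2 were at 11.77 and 9.41 in control 1, against at most 7.61 and 6.87 on the other arrays. They are named for these values, and the other listed sulphotransferases that were tested did not share so wide a gap. Sult1b1 was at 7.10 in control 1 and at 7.18 in control 3. Sult1d1 was at 11.215 in control 1, little above VP16LXRa 8. Sult2b1 was at 11.24 in control 1, its lowest array but control 4. The 10 tested markers of absorptive enterocytes averaged 11.77 in control 1, the lowest but control 4. The labels give ileum for every tumour, and Fabp6 was at 14.31 in control 1. The part of colonic tissue or of cell composition in the control 1 values, those of Cyp2c55, Cyp2c65 and the Cyp2d genes included, was not tested.

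The 4 tested Cyp2d genes, mouse relatives of the human enzyme that oxidises debrisoquine and many drugs, had negative differences smaller than their SE, with a median of -0.16, and all 4 were positive without VP16LXRa 5. Cyp2d26 was at 10.48, 9.87, 10.48 and 8.06 in controls and at 7.59, 9.72, 8.05 and 12.21 in VP16LXRa tumours. VP16LXRa 8 was the highest array and VP16LXRa 5 the lowest, and the groups overlapped. The difference was -0.33 (SE 0.98), with -1.27 without VP16LXRa 8 and 0.27 without VP16LXRa 5. Its other 2 probes differed by -0.47 and -0.19, with lowest values of 4.73 and 4.63, both in VP16LXRa 5, where neither was detected. Cyp2d10 ran from 6.50 in control 4 to 9.20 in VP16LXRa 8, Cyp2d22 from 7.26 in control 4 to 10.50 in control 2 and VP16LXRa 8, and Cyp2d40 from 5.05 in VP16LXRa 5 to 7.02 in VP16LXRa 8. Their differences were -0.15 (SE 0.64), -0.12 (SE 0.72) and -0.17 (SE 0.44). Without VP16LXRa 5 they were 0.15, 0.20 and 0.08, and without VP16LXRa 8 they were -0.71, -0.60 and -0.57.

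A further 5 tested genes belong to families 1 and 2. Cyp1b1, which oxidises polycyclic aromatic hydrocarbons and oestradiol, was at 5.81, 7.57, 5.40 and 8.05 in controls and at 8.95, 7.93, 7.07 and 6.88 in VP16LXRa tumours. The groups overlapped, with VP16LXRa 5 highest and control 3 lowest, and the difference was 1.00 (SE 0.67). It was 0.55 without control 3, 0.59 without VP16LXRa 5, 1.29 without control 2 and 1.45 without control 4. Control 3 also had the lowest mean of the 8 tested fibroblast markers, 7.15 there and 8.66 to 10.07 on the other arrays, and the part of this in the Cyp1b1 values was not tested. Cyp2s1, a P450 of surface epithelia, varied little, at 10.62, 10.76, 11.02 and 10.06 in controls and 10.48, 10.31, 10.54 and 11.07 in VP16LXRa tumours, a difference of -0.02 (SE 0.27) that ran from -0.21 to 0.12 over single arrays left out. Cyp2j9, of a subfamily that makes epoxides of arachidonic acid, was at 5.98, 6.48, 5.51 and 5.79 in controls and at 4.93, 5.69, 5.25 and 5.83 in VP16LXRa tumours, a difference of -0.51 (SE 0.29). Its groups overlapped, and the difference was -0.34 without control 2. Cyp2e1, which oxidises ethanol, ran from 4.63 to 8.03, was detected on 2 controls and 3 VP16LXRa arrays and differed by 0.73 (SE 0.79), with 0.22 without VP16LXRa 6 and 1.37 without VP16LXRa 7. Cyp2u1, a fatty acid hydroxylase, differed by 0.14 (SE 0.26) near the background, with -0.026 without control 4 and 0.33 without control 2.

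All 3 tested Cyp3a genes, the family of the main drug and steroid oxidases, had a higher mean in VP16LXRa tumours, with a median difference of 0.78, and none had an unadjusted p under 0.05. Cyp3a13, the member known from mouse intestine, was at 11.65, 12.79, 12.28 and 10.37 in controls and at 11.65, 12.47, 13.02 and 12.74 in VP16LXRa tumours. The groups overlapped, with control 4 lowest. The difference of 0.70 (SE 0.52) became 0.23 without control 4, 0.97 without VP16LXRa 5 and 1.04 without control 2. Its other probes differed by 0.68 and 0.008, the latter at 4.71 in VP16LXRa 5 and from 8.49 to 9.19 in the other VP16LXRa arrays, so that it differed by 1.03 without VP16LXRa 5. Cyp3a11, a target of the pregnane X receptor Nr1i2, was at 5.36, 7.41, 8.56 and 5.52 in controls and at 6.39, 8.32, 6.47 and 9.96 in VP16LXRa tumours, a difference of 1.07 (SE 0.94) that became 0.34 without VP16LXRa 8, 0.62 without control 1 and 0.68 without control 4. It rose to 1.66 without control 3, 1.535 without VP16LXRa 5 and 1.51 without VP16LXRa 7. Cyp3a25 was at 6.58, 8.92, 8.70 and 6.74 in controls and at 7.82, 9.10, 7.42 and 9.71 in VP16LXRa tumours, a difference of 0.78 (SE 0.69) that became 0.38 without VP16LXRa 8, 0.40 without control 1 and 0.45 without control 4. It rose to 1.175 without control 2, 1.15 without VP16LXRa 7, 1.08 without control 3 and 1.00 without VP16LXRa 5. In both genes controls 1 and 4 were the lowest arrays and VP16LXRa 8 the highest. Cyp3a16 and Cyp3a44 were detected on no array.

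Family 4 enzymes hydroxylate the end of fatty acid chains, and the Cyp4f members also inactivate leukotriene B4. Cyp4f14 was at 13.18, 14.51, 14.38 and 12.98 in controls and at 13.88, 13.73, 14.36 and 14.55 in VP16LXRa tumours, a difference of 0.37 (SE 0.40), with controls 1 and 4 lowest. It was 0.11 without control 4, 0.18 without control 1, 0.23 without VP16LXRa 8 and 0.62 without control 2. Cyp4f13 was at 11.17, 11.39, 11.38 and 10.02 in controls and at 10.64, 11.23, 11.26 and 11.79 in VP16LXRa tumours, a difference of 0.24 (SE 0.37). Control 4 alone lay apart there, and the difference was -0.083 without it and 0.43 without VP16LXRa 5. Cyp4f16 was at 10.81, 12.56, 11.58 and 10.18 in controls and at 11.45, 11.23, 10.63 and 11.66 in VP16LXRa tumours, a difference of -0.04 (SE 0.48) that ran from -0.41 to 0.38 over single arrays left out. Its other 2 probes differed by 0.05 and -0.76, the latter at 5.43 in VP16LXRa 5 and at -0.021 without that array.

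Cyp4v3, the mouse counterpart of the human gene mutated in Bietti crystalline dystrophy, was at 8.77, 11.31, 11.25 and 8.73 in controls and at 9.82, 11.53, 11.15 and 12.00 in VP16LXRa tumours. Controls 1 and 4 were the lowest arrays, while controls 2 and 3 lay within the VP16LXRa range. The difference was 1.11 (SE 0.72), with 0.68 without control 4 and 0.69 without control 1. It was 1.54 without VP16LXRa 5, 1.54 without control 2 and 1.51 without control 3. Cyp4b1 was at 8.04, 7.10, 8.18 and 5.54 in controls and at 5.03, 7.51, 8.34 and 10.23 in VP16LXRa tumours, a difference of 0.56 (SE 1.01) that was -0.25 without VP16LXRa 8, 0.015 without control 4 and 1.47 without VP16LXRa 5. Cyp4f18, known from leukocytes, was at 8.74 in control 2 and from 5.66 to 6.44 on the other 7 arrays. It differed by -0.42 (SE 0.58), or 0.25 without control 2. An untested Cyp4f18 probe did not share the high value of control 2. It was at 4.685 there and was detected only on control 1, at 5.41. The mean of the 4 tested B and plasma cell markers was also highest in control 2, at 9.67 against 6.21 to 7.52 elsewhere, although Igj among them was highest in VP16LXRa 6, and their part in the Cyp4f18 value was not tested.

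**Figure D4:**
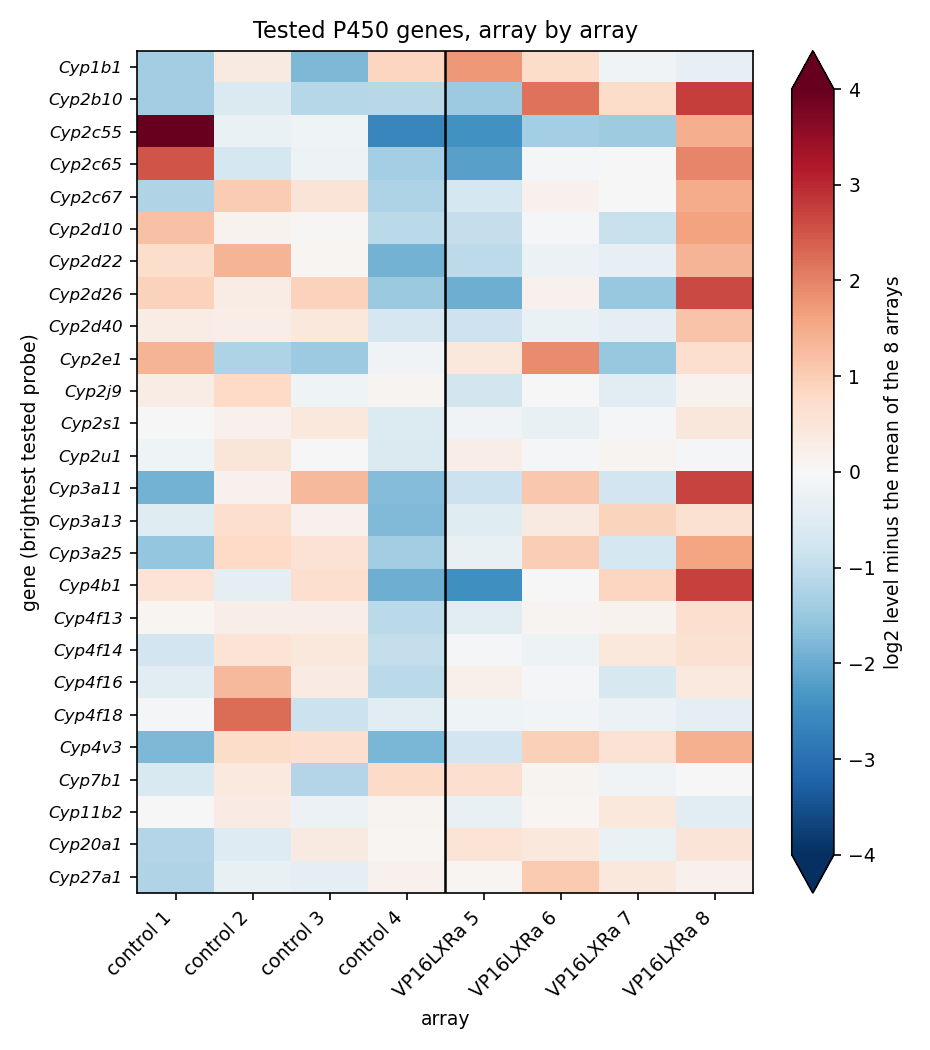
Log2 level minus the 8-array mean (colour, limited to ±4) for the 26 tested P450 genes (rows, brightest tested probe) in each array (columns; the line parts control from VP16LXRa). Control 4 and VP16LXRa 5 are low across most rows, VP16LXRa 8 is high, and control 1 is high for Cyp2c55 and Cyp2c65.

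Single arrays stood out across the P450 genes. The mean deviation of the 26 genes from their 8-array means was 0.02, 0.32, -0.02 and -0.88 in controls 1 to 4 and -0.55, 0.29, -0.19 and 1.00 in VP16LXRa 5 to 8. VP16LXRa 8 was the highest of its group in 17 of 26 genes, where it was the highest in 23.6% of all tested genes. Control 4 was the lowest of its group in 15 genes, against 30.3% of all tested genes, and VP16LXRa 5 the lowest of its group in 15, against 22.6%. These shares describe single arrays and were not tested.

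Markers of other cells are given beside this pattern. The 10 tested enterocyte markers of 18 listed averaged 11.77, 13.38, 13.14 and 11.33 in controls and 12.62, 12.88, 12.80 and 13.33 in VP16LXRa tumours, with Fabp1, Fabp2 and Slc10a2 detected on no array. Control 4, low for most P450 genes, was also the lowest in enterocyte markers, and VP16LXRa 8 was the highest of its group in both. Not all arrays ran in parallel. Control 1 was next lowest in enterocyte markers, with a P450 mean deviation of 0.02. VP16LXRa 5 was the lowest of its group in both, but its enterocyte mean exceeded that of control 1 while its P450 deviation was -0.55. Of all 8 arrays, control 2 was highest in enterocyte markers and VP16LXRa 8 in P450 genes. The 6 tested gastric markers of 11 listed all had a higher mean in VP16LXRa tumours. They averaged 4.65 to 7.67 in controls and 6.38 to 10.08 in VP16LXRa tumours, with VP16LXRa 8 the lowest of its group. Gkn2 among them was detected on only 4 arrays, with 4.46 to 5.06 in controls and 5.10 to 8.20 in VP16LXRa tumours. Its entry may have depended on the group in which it was higher. Muc5ac, detected on 3 arrays, and Atp4a, on 2, were not tested, and Atp4b and Gif were detected on no array. Of 14 hepatocyte markers, Alb, Apoh, Fga, Fgb, Tat and Mup1 were detected on no array, while Serpina1d, Ttr, Cps1 and F2 were tested, with 2 positive and 2 negative differences. The mean of the 7 tested stem cell markers was highest in control 4, at 8.92 against 6.55 to 7.86 on the other arrays, although Olfm4 and Rnf43 were highest elsewhere. All 9 tested smooth muscle markers had a positive difference, with a median of 1.04, and averaged 7.38 in control 3 against 9.40 to 10.96 on the other arrays. Of 9 tested Paneth cell markers 7 had a positive difference, with a median of 0.74. Their mean ran from 10.30 to 12.82 in controls and from 11.35 to 12.97 in VP16LXRa tumours. Lyz2 among them, also listed as a macrophage marker, had the most negative difference, -1.76. It was at 4.57 in VP16LXRa 5, the array with the mean of 11.35. Fewer enterocytes and less P450 RNA per enterocyte cannot be told apart in tumour pieces, and the part of cell composition was not tested.

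**Figure D5:**
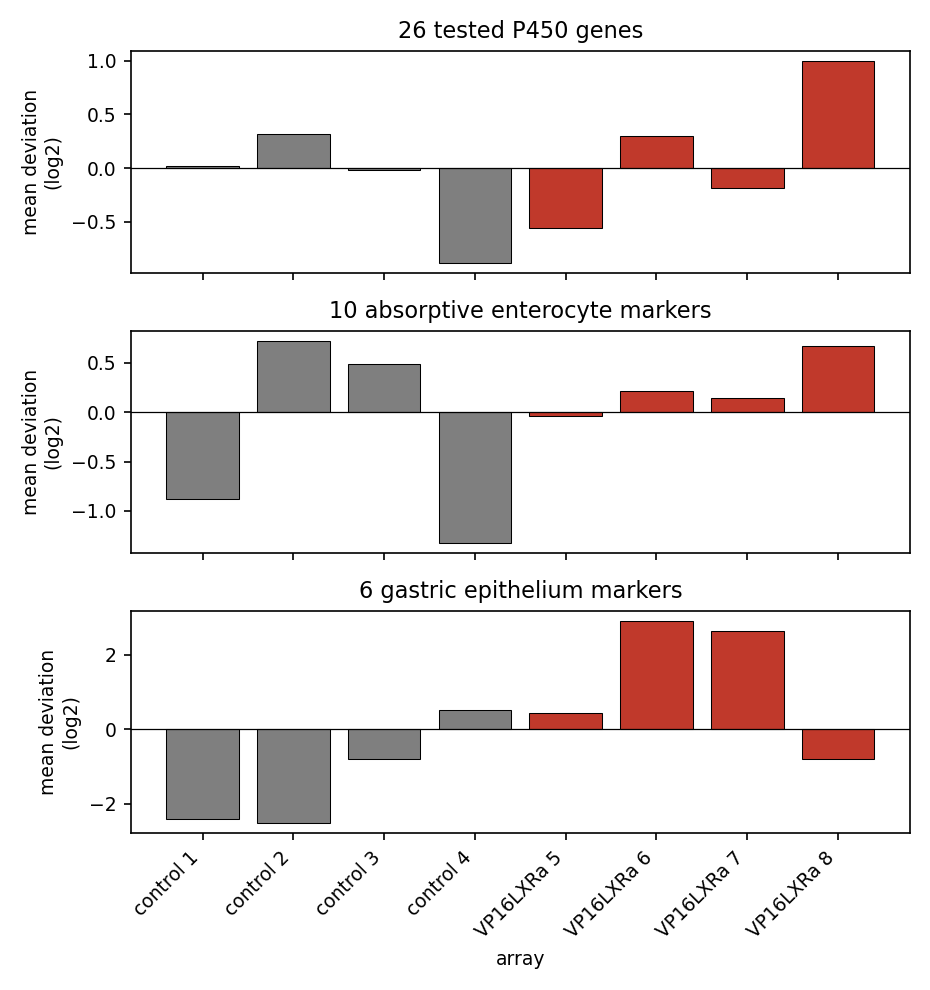
Mean log2 deviation from the 8-array mean per array (bars; grey control, red VP16LXRa) for the 26 tested P450 genes, 10 absorptive enterocyte markers and 6 gastric epithelium markers. Control 4 was lowest for the P450 genes and the enterocyte markers, and VP16LXRa 6 and 7 were highest for the gastric markers.

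The tested partners of the P450 enzymes did not differ past the threshold either. Of 8 tested electron donors, 7 had a positive difference and 1 a negative one, with a median of 0.20 and 0 past the threshold or at an unadjusted p under 0.05. Cyb5r3, a cytochrome b5 reductase, differed by 0.40 (SE 0.29), Cyb5b, the mitochondrial cytochrome b5, by 0.26 (SE 0.23) and Por by 0.18 (SE 0.43). The ferredoxin genes Fdx1, detected on 1 array, and Fdx1l, on 2, were not tested. Of 11 receptors and transcription factors that control P450 genes, there were 6 with a positive and 5 with a negative difference, with a median of 0.01 and none at an unadjusted p under 0.05. Nr5a2, a regulator of bile acid genes, differed by 0.58 (SE 0.33), Nr1i3 by 0.71 (SE 0.44), Hnf4a, a regulator of hepatic and intestinal genes, by 0.01 (SE 0.25) and the bile acid receptor Nr1h4 by -0.12 (SE 0.29). Nr0b2 and Tiparp were detected on no array.

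Enzymes that act after or beside the P450s split evenly. Of 26 tested conjugating and companion enzymes, 13 had a positive difference and 13 a negative one, with a median of 0.08 and none at an unadjusted p under 0.05. The microsomal glutathione transferases Mgst3 and Mgst2 differed by -0.31 (SE 0.35) and 0.42 (SE 0.24), and Gsta4, which conjugates products of lipid peroxidation, by 0.93 (SE 0.45). Of the 3 P450 enzymes whose symbols lie outside the pattern, Cyp51, the sterol demethylase of cholesterol synthesis, was at 10.24, 9.96, 10.95 and 10.06 in controls and at 9.72, 9.75, 9.74 and 9.69 in VP16LXRa tumours. Every VP16LXRa array lay below every control, as for 0.722% of all tested probes, and the difference was -0.58 (SE 0.25, unadjusted p = 0.0458 and adjusted p = 0.998 with limma). Tbxas1, thromboxane synthase, differed by -0.46 (SE 0.26) and Ptgis, prostacyclin synthase, by 0.48 (SE 0.55).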

How the data were processed

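Total RNA of 8 ileal tumours was labelled as biotinylated cRNA and read on Illumina BeadChips, per the labels' protocols. The deposited table gives an intensity and a detection p-value per probe and array, per the file headers, from GenomeStudio, per the submitters' processing notes (version not stated). A second deposited table holds the authors' processed intensity values, background-subtracted and quantile-normalized as its values show, which served as an alternative after raising values below 16 to that floor.

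Intensities were corrected by normexp with negative controls inferred from detection p (offset 16), quantile-normalized and log2-transformed with limma 3.58.1 (R 4.3.3). Probes with detection p under 0.05 on at least 4 arrays (13426) entered lmFit and eBayes, and two-sided p-values were adjusted by Benjamini-Hochberg over all of them (threshold 0.05). The steps were tested on simulated data. A gene is its brightest tested probe. The 2 symbols set aside are not reported here. All 74 P450 symbols matched RefSeq symbols. Every tested P450 gene is named, with array values for those with unadjusted p under 0.05, no overlap, the 6 smallest p, the 8 highest means or a span over 4, and most others. The members and lists were chosen with earlier results of these data known. The number of arrays limits the precision.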

Additional observations from a re-analysis of the deposited data

Results flagged for a closer look

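Within each group of 4 arrays, the gap between the highest or lowest array and its nearest neighbour was divided by the group's range and compared with Dixon's critical value for 4 arrays, which chance passes in about 1 set of 20. Of 68 sets from the tested P450 probes, 3 passed, where chance gives about 3.4. These were Cyp2d40 in control 4 (ratio 0.848, at 5.21 against 6.14 to 6.31), Cyp4f13 in control 4 (ratio 0.843, at 10.02 against 11.17 to 11.39) and the dimmest Cyp3a13 probe in VP16LXRa 5 (ratio 0.844, at 4.71 against 8.49 to 9.19).

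Of 48 sets from untested probes detected on 1 to 3 arrays, a choice that favours single high arrays, 9 passed. Control 1 stood apart for Cyp2d9 (0.933, at 8.63), Cyp2d34 (0.932, at 9.05), Cyp4f15 (0.881, at 6.01) and Cyp2d12 (0.846, at 5.91). VP16LXRa 8 stood apart for Cyp17a1 (0.876, at 6.03), an untested Cyp2c67 probe (0.869, at 5.09) and Cyp4f15 (0.862, at 5.29). The remaining ratios were 0.933 for Cyp4f39 in VP16LXRa 6, at 5.19, and 0.905 for Cyp2c68 in control 3, at 5.16.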

How the results depend on the processing

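No P450 probe passed the adjusted threshold under any alternative run: other background corrections, offsets, normalizations and filters, array weights, another variance prior, the authors' table, each array left out and a threshold of 0.1. Over all probes 1 passed with cyclic loess, 2 with array weights, 1 at an adjusted p under 0.1, and 0 to 2 with single arrays left out. The 3 P450 probes at an unadjusted p under 0.05 became 1 without normalization, 6 with array weights and 1 to 3 with single arrays left out (1 without control 1 or VP16LXRa 6). The 1 P450 probe without overlap became 0 without normalization or with cyclic loess, 3 over all probes without a filter, and 1 to 2 with single arrays left out. The 15 P450 genes with a positive difference became 45 of 74 without a filter, 9 of 17 with detection on all 8 arrays, and 13 to 21 with single arrays left out. With detection on all 8 arrays 17 P450 genes were counted, and with detection on any array 46, against 26. The P450 median difference ran from -0.006 to 0.444 with single arrays left out and from 0.053 to 0.307 otherwise.

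Of 483 values of named genes, 26 changed sign, all with 1 array left out. The ranges over arrays left out were -0.281 to 0.013 for Cyp11b2, -3.06 to 0.079 for Cyp2c55, -0.806 to 0.680 for Cyp2c65, -0.710 to 0.219 for Cyp2d10, -0.785 to 0.305 for Cyp2d22, -1.27 to 0.274 for Cyp2d26, -0.568 to 0.082 for Cyp2d40, -0.206 to 0.116 for Cyp2s1, -0.026 to 0.334 for Cyp2u1, -0.247 to 1.47 for Cyp4b1, -0.083 to 0.434 for Cyp4f13, -0.409 to 0.383 for Cyp4f16, -0.766 to 0.248 for Cyp4f18 and -0.012 to 0.629 for Cyp7b1. The cause was not tested. A BeadChip block was not run, since no chip is named in the files used here. No paired analysis was possible because the titles give controls the numbers 1 to 4 and VP16LXRa tumours 5 to 8.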
